A study of Mus musculus with 18 samples.

Results

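Gluconeogenesis, the making of new glucose from lactate, glycerol and amino acids, was followed in mouse liver through 9 genes: Pck1, Pck2, G6pc, G6pc3, Fbp1, Pcx, Slc37a4, Creb3l3 and Crtc2. The genes were chosen by name, as the enzymes and the transporter that carry out the steps particular to gluconeogenesis together with a transcription factor and a coactivator that are known to act on it. All 9 were found, each as 1 row, among the 19057 genes of the deposited table. The values are RPKM, the reads of a gene scaled to its length and to the read total of the library, so that levels can be compared between genes as well as between libraries.

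Liver RNA was sequenced in 6 groups of ICR mice, an outbred strain, with 3 libraries per group and 18 in all, and the mice were 10 weeks old according to the labels. Con was the control group on the regular diet. HS received a high-fat diet and STZ (streptozotocin, which is toxic to the insulin-producing beta cells), A10-FMT received the same and then gut microbiota from donors dosed with 10 mg/kg AOS (alginate oligosaccharide, short chains of a seaweed polysaccharide), and Con-FMT received the same and then microbiota from control donors. A10 received 10 mg/kg AOS without diet and STZ, and HS+A10 received diet, STZ and 10 mg/kg AOS. Con, HS, A10-FMT and Con-FMT are described in the study's methods, in which all mice were male and the intestinal content of each donor group was pooled, whereas A10 and HS+A10 are known from the labels. HS, HS+A10 and both recipient groups share diet and STZ, so that neither can be told apart from the other in any comparison with Con. The labels give the 3 libraries of a group as separate samples and do not state whether each came from its own mouse, so p-values measure the spread between these libraries.

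In the liver, pyruvate is carboxylated in mitochondria to oxaloacetate, which is turned into phosphoenolpyruvate. From there the pathway runs backwards through enzymes that it shares with glycolysis to fructose 1,6-bisphosphate. A step particular to gluconeogenesis makes fructose 6-phosphate, a shared step makes glucose 6-phosphate, and another particular step makes glucose. Fasting hormones such as glucagon raise transcription of the key enzymes through cAMP, CREB and its coactivators, glucocorticoids act through their receptor, and insulin represses the same genes, in large part by keeping FOXO1 out of the nucleus. In diabetes, insulin lack or insulin resistance removes this brake, and hepatic glucose output is known to contribute to high blood glucose.

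Pck1 encodes the cytosolic phosphoenolpyruvate carboxykinase, which makes phosphoenolpyruvate from oxaloacetate, and lies on chr2:173153048-173159273 (GRCm38, plus strand). G6pc encodes the catalytic subunit of the liver glucose-6-phosphatase, which releases free glucose, and lies on chr11:101367561-101377903 (GRCm38, plus strand). Both are textbook targets of cAMP, glucocorticoid and insulin signalling, but over these 18 libraries their levels had a Pearson's r of 0.03, and the sequences upstream of their RefSeq start sites are therefore shown. Each run is 250 bases long, ends at the base before the start site, is written 5′ to 3′ on the plus strand of GRCm38.p6 and carries in capitals the matches to the 8 motifs searched. The Pck1 run is chr2:173152823-173153072 and the G6pc run is chr11:101367466-101367715.
Pck1: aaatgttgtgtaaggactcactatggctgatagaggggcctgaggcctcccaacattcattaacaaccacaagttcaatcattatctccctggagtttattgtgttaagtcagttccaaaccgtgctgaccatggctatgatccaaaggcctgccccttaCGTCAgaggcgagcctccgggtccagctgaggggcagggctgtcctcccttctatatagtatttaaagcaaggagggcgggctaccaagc
G6pc: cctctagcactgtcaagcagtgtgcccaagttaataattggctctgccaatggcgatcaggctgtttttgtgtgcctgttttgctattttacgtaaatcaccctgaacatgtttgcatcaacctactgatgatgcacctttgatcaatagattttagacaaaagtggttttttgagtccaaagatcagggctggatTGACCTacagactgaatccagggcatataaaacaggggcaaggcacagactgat

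The capitals in Pck1 are the minus-strand form of TGACG, the core of the CRE (the cAMP response element bound by CREB), which begins 90 bases before the start site. The capitals in G6pc are the minus-strand form of AGGTCA, the core bound by many nuclear receptors, which begins 54 bases before the start site. The search covered both strands of the RefSeq windows from 250 bases before to 50 bases after each start site, 12 windows for 8 of the 9 genes. Of the 32851 windows in the RefSeq table, 1.79% held the full CRE (TGACGTCA), 20.8% the core TGACG (which every full CRE contains), 3.65% the FOXO/FOXA core (TGTTTAC), 0.183% the C/EBP palindrome (TTGCGCAA), 0.938% the D-box of clock-output factors (TTATGTAA), 7.15% the E-box (CACGTG), 16.3% AGGTCA and 19% AGAACA, a core of glucocorticoid receptor sites. Of the 12 windows, 4 held TGACG (in Pck1, Creb3l3 and windows 1 and 2 of the 3 windows of Slc37a4). Windows 1 and 2 of Slc37a4 overlap, and their plus-strand TGACG is 1 and the same site, counted in both. AGGTCA was held by 4 (in G6pc, Pcx, Slc37a4 and Creb3l3), the E-box by 2 (in G6pc3 and Pcx) and AGAACA by 2 (in G6pc3 and Creb3l3). No window of the 12 held the full CRE, the FOXO/FOXA core, the C/EBP palindrome or the D-box, and the windows of Fbp1 and Pck2 held none of the 8 motifs. A match describes these letters in these windows and is not evidence that a factor binds there.

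On the RPKM scale the genes of the pathway spanned a wide range. Fbp1 (fructose-1,6-bisphosphatase, chr13:62864753-62888282 of GRCm38) had the highest mean over the 18 libraries, 874 RPKM, followed by Pck1 with 828 RPKM, G6pc with 249 RPKM, Pcx (pyruvate carboxylase, chr19:4510472-4621752) with 141 RPKM, Creb3l3 (CREB-H, a transcription factor held in the endoplasmic reticulum membrane and released in fasting, chr10:81084324-81098874) with 132 RPKM and Slc37a4 (the transporter that brings glucose 6-phosphate to glucose-6-phosphatase, chr9:44396852-44402968) with 79.7 RPKM. Crtc2, a CREB coactivator, averaged 8.73 RPKM and G6pc3, the glucose-6-phosphatase subunit found in most tissues, 4.14 RPKM. Pck2, the mitochondrial form of the Pck1 enzyme, was close to the lower end in every library, between 0.33 and 0.81 RPKM, and was not tested because genes needed a mean of at least 1 RPKM. Thus 8 of the 9 genes were tested, among 10204 genes in all.

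**Figure D1:**
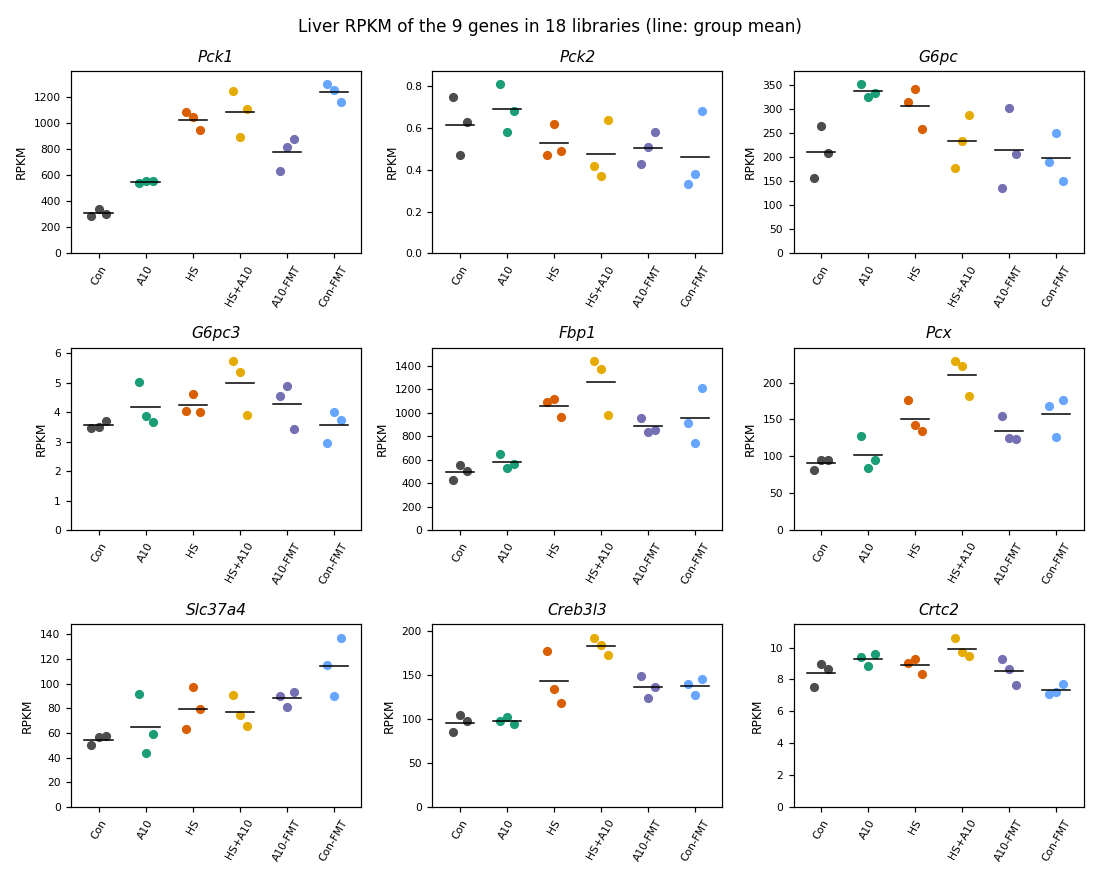
RPKM of the 9 genes (y axes, linear, each from 0) in the 6 groups (x axes), with 1 point per library and a line at the mean of the 3 libraries. Pck1, Fbp1, Pcx and Creb3l3 were lowest in Con and A10. In G6pc, Con, HS+A10, A10-FMT and Con-FMT overlapped, while A10 was above all of these and overlapped HS alone.

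Some features of the libraries bear on what follows. RPKM summed to between 692818 and 806937 per library, and relative depth, read from the spacing of low values, was 0.951 to 1.04 of the mean, lowest in HS, but the number of reads is unknown and no counting interval was computed. Con replicate 3 had a value between those of Con replicates 1 and 2 in 95.5% of 858 genes for which these differed by over 0.5 on the log2 scale, and A10 replicate 3 did so for 94.1% of 577 genes, against 24.0% to 72.9% for every other library, a position that an average or a pool of replicates 1 and 2 would also have. The labels list both as samples of their own, and whether they are independent was not tested. If they are not, Con and A10 hold 2 independent libraries each, and their SDs and p-values, given here with n = 3, are too small. The calls that rest on Con or A10 were therefore recomputed without both. Con-FMT replicate 3 carried RNA of pancreatic acinar cells, with 8 markers that summed to 13292 RPKM against at most 49.6 RPKM in any other library. Defining markers of hepatocytes (Alb, Ttr, Apoa1 and 3 more) were high everywhere, at 31498 to 54485 RPKM in sum, and 5 markers of kidney proximal tubule, which also makes glucose, summed to at most 5.15 RPKM. The 5 genes marking enterocytes, some of which hepatocytes express, included Sis, which was at 0 in every library. In bulk liver RNA, a change in the share of hepatocytes and a change in RNA per hepatocyte cannot be told apart.

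To ask what high-fat diet and STZ did to the pathway, HS was compared with Con. Genes of the early and middle steps rose and the last step did not pass the test. Limma on log2(RPKM + 1) with Benjamini-Hochberg adjustment over all tested genes called 4 of the 8 genes, all higher in HS (Pck1, Fbp1, Pcx and Creb3l3), where 17.7% of all tested genes were called in either direction. The same 4 genes were called without both Con replicate 3 and A10 replicate 3 (adjusted p from 2.23e-04 for Pck1 to 0.039 for Pcx). The median log2 change was 0.56 over the 8 genes and 0.14 over all tested genes, so the values moved slightly upward in general.

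Pck1 was at 287, 342 and 302 RPKM in Con replicates 1 to 3 and at 1084, 1045 and 941 RPKM in HS. All HS libraries were well above all Con libraries, a 3.29-fold ratio of means (311 ± 28.6 against 1023 ± 73.7 RPKM, SD, n = 3 each) and a log2 change of 1.72 (SE 0.13, adjusted p = 3.03e-06 by limma). Relative to the median of all genes the change was 1.58. It had the largest change of the 8 genes.

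Fbp1, the enzyme that opens the fructose 1,6-bisphosphate step, was at 425.5, 554 and 508 RPKM in Con and at 1096, 1118 and 965 RPKM in HS, a log2 change of 1.10 (SE 0.17, adjusted p = 0.00109 by limma). The Con and HS libraries did not overlap. Pcx, which feeds the pathway with oxaloacetate, was at 81.5, 95.4 and 95.5 RPKM in Con and at 177, 142 and 134 RPKM in HS, a log2 change of 0.72 (SE 0.17, adjusted p = 0.0102). Creb3l3 was at 85.1, 104 and 97.7 RPKM in Con and at 178, 135 and 118 RPKM in HS, a log2 change of 0.56 (SE 0.12, adjusted p = 0.00845). For Pcx and Creb3l3 too the lowest HS library exceeded the highest Con library, but the gaps were narrower than for Pck1. After scaling every library to the same median, Creb3l3 had a log2 change of 0.38 and lost its call (adjusted p = 0.0558 by limma).

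G6pc was at 156, 265 and 208 RPKM in Con and at 315, 342 and 259 RPKM in HS, so that the lowest HS library fell below the highest Con library. Its log2 change was 0.56 (SE 0.26, adjusted p = 0.145 by limma), the size of that of Creb3l3 with a larger error. Slc37a4, its partner in the endoplasmic reticulum, was at 50.1, 56.6 and 57.15 RPKM in Con and at 62.8, 96.9 and 79.6 RPKM in HS. Those libraries did not overlap, but the log2 change of 0.52 did not pass the test (adjusted p = 0.112). G6pc3 (log2 change 0.20, adjusted p = 0.317) and Crtc2 (log2 change 0.08, adjusted p = 0.495) were not called either. With 3 libraries against 3, permutation allows no exact two-sided p below 0.1, so that non-overlap of groups is given here as a description.

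**Figure D2:**
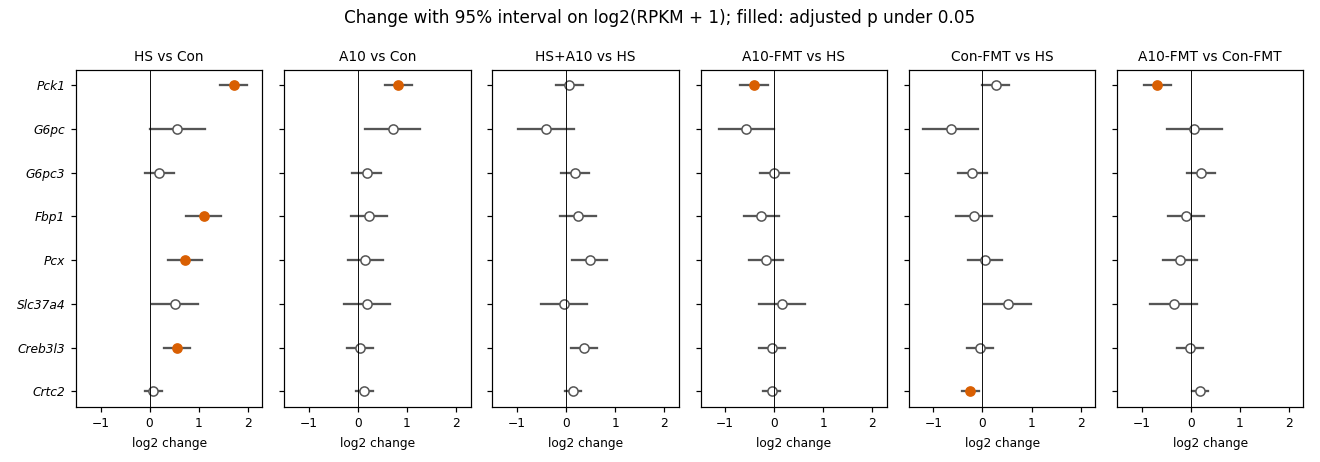
Log2 change on log2(RPKM + 1) with its 95% interval from limma (x axes) of the 8 tested genes (y axis) in 6 comparisons, filled where the adjusted p is under 0.05. In HS against Con 4 genes were called and all 8 estimates lie above 0, while in each comparison of recipients 1 gene was called.

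A list of 7 genes for the steps that oppose gluconeogenesis also included Gckr and Pdk4, which inhibit such steps. Its median log2 change in HS, -0.31, was that of Pdk4, an inhibitor of pyruvate dehydrogenase, and so does not measure the opposing steps. Pdha1, a subunit of pyruvate dehydrogenase, was called higher in HS (log2 change 0.40, adjusted p = 0.0322 by limma). Its call was lost without any 1 of HS replicates 1 to 3 or of Con replicates 1 and 3 (adjusted p 0.0525 to 0.134). The call of Pdha1 was also lost without both Con replicate 3 and A10 replicate 3 (adjusted p = 0.0969) and after scaling to the same median (0.159). The 8 enzymes that gluconeogenesis shares with glycolysis had a median log2 change of 0.17, against 0.14 for all tested genes.

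Genes that supply the pathway with substrate rose in part. Of 19 tested genes of this list 6 were called, all higher in HS, with a median log2 change of 0.32. Among all tested genes 17.7% were called. Among them Slc25a10, the mitochondrial dicarboxylate carrier, had a log2 change of 0.73 (adjusted p = 0.00459 by limma), and Aqp9, the channel through which glycerol enters hepatocytes, had a log2 change of 0.45 (adjusted p = 0.00642). The call of Aqp9 was lost after scaling to the same median (0.27, adjusted p = 0.0843) and when only HS and Con were fitted (adjusted p = 0.069). Gpd1, the cytosolic glycerol-3-phosphate dehydrogenase, had a log2 change of 0.51 (adjusted p = 0.0141). The adjusted p of Gpd1 was 0.0674 without Con replicate 1 and 0.0612 after scaling to the same median. Got1, the cytosolic aspartate aminotransferase, was at 43.4 ± 9.16 RPKM in Con and 113 ± 42.6 RPKM in HS (SD, n = 3), a log2 change of 1.32 (adjusted p = 0.0145). The adjusted p of Got1 was 0.0574 without HS replicate 3 and 0.0656 without Con replicate 1. It was 0.0555 without both Con replicate 3 and A10 replicate 3.

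Of the 22 tested regulators of gluconeogenic transcription 2 were called in HS, both higher (median log2 change 0.13), against 17.7% of all tested genes. Klf15, a factor that promotes amino acid catabolism, was at 38.2 ± 10.96 RPKM in Con and 64.0 ± 13.2 RPKM in HS, a log2 change of 0.75 (adjusted p = 0.0121 by limma). The adjusted p of Klf15 was 0.0541 without Con replicate 1, 0.0575 after median scaling and 0.0889 when only HS and Con were fitted. Foxo1 had a log2 change of 0.24 (adjusted p = 0.0359), which fell to 0.08 after median scaling (adjusted p = 0.544) and lost its call without HS replicate 2 or 3 or Con replicate 1 or 3 (adjusted p 0.0816 to 0.157). Without both Con replicate 3 and A10 replicate 3 the adjusted p of Foxo1 was 0.106. Ppargc1a, a coactivator often studied in this context and named here after its values were seen, averaged between 0.67 RPKM in Con and 1.35 RPKM in Con-FMT and was below the filter.

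Of 8 genes listed as targets of CREB-H, the protein made from Creb3l3, 4 rose and 1 fell in HS (median log2 change 0.85). For this and the next list, the share of all tested genes called was 17.7%. Apoa4, an apolipoprotein of triglyceride-rich particles, was at 205 ± 19.1 RPKM in Con and 1244 ± 494 RPKM in HS, a log2 change of 2.51 (adjusted p = 1.80e-04 by limma). Apoc2, the activator of lipoprotein lipase, had a log2 change of 1.18 (adjusted p = 0.00249), and Cidec, a lipid droplet protein, rose from 0.347 to 2.89 RPKM with a log2 change of 1.34 (adjusted p = 0.011, and 0.0539 without both Con replicate 3 and A10 replicate 3). The gene that fell was Apcs, an acute-phase protein, with a log2 change of -1.65 (adjusted p = 0.019). Its call was lost without HS replicate 2 or Con replicate 1 or 3 (adjusted p 0.0529 to 0.0941). Without both Con replicate 3 and A10 replicate 3 the adjusted p of Apcs was 0.0886. Of 8 hormone receptors and reporters of insulin or FOXO signalling 2 were called higher, Irs1 and Trib3, of which Trib3, an inhibitor of AKT that rises in stress, had a log2 change of 1.31 (adjusted p = 0.00267). Irs1, an insulin receptor substrate, lost its call without HS replicate 2 or 3 or Con replicate 1 or 3 (log2 change 0.40, adjusted p = 0.0485, and 0.0954 to 0.191 without these). The call of Irs1 was also lost without both Con replicate 3 and A10 replicate 3 (adjusted p = 0.117) and after median scaling (0.254). Markers of other cells moved with this comparison: 5 stellate cell markers summed to 22.9 to 36.4 RPKM in HS and 14.8 to 15.7 RPKM in Con, and 5 erythroid markers to 2886 to 10041 RPKM in HS and 1256 to 1972 RPKM in Con. Their part in the results was not tested.

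Next, each kind of transplanted microbiota was compared with HS. Pck1 was lower in A10-FMT and the other genes were not called in that comparison. In Con-FMT, Pck1 was not called and Crtc2 was lower. Limma called 1 of the 8 genes in A10-FMT against HS, where 23.1% of all tested genes were called, and 1 of the 8 in Con-FMT against HS, where 23.6% of all tested genes were called, so that neither share exceeded the background. Both comparisons use the same HS libraries. Markers of other cells moved with them. In A10-FMT, 5 Kupffer cell markers summed to 26.1 to 32.4 RPKM against 35.9 to 58.8 RPKM in HS (2 of 5 called lower), and 5 erythroid markers to 1135 to 2049 RPKM against 2886 to 10041 RPKM (1 of 4 tested called lower). Of 5 endothelial markers, 2 were called lower in A10-FMT (29.4 to 40.3 RPKM in sum, against 39.8 to 47.1 RPKM in HS). In Con-FMT, 3 of 4 erythroid markers (875.6 to 3619 RPKM in sum) and 2 of 5 stellate cell markers (19.2 to 24.5 against 22.9 to 36.4 RPKM) were called lower. Their part in the results was not tested.

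Pck1 was at 632, 815 and 876 RPKM in A10-FMT, all below the 941 to 1084 RPKM of HS, and at 1294, 1248 and 1159 RPKM in Con-FMT, all above HS. Its log2 change from HS was -0.41 in A10-FMT (SE 0.13, adjusted p = 0.0332 by limma) and 0.27 in Con-FMT (95% interval -0.01 to 0.55, adjusted p = 0.148). The median of all tested genes moved by -0.16 in A10-FMT, relative to which the change of Pck1 was -0.25. The call in A10-FMT was not held by every setting. It was lost when libraries were scaled to the same median (log2 change -0.22, adjusted p = 0.38) and without HS replicate 1 or 2 or A10-FMT replicate 1 or 2 (log2 change -0.46 to -0.27, adjusted p 0.0565 to 0.116).

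G6pc was at 136, 302 and 206 RPKM in A10-FMT and at 191, 249.7 and 151 RPKM in Con-FMT, where all 3 libraries were below the lowest HS library of 259 RPKM. Its log2 change from HS was -0.57 in A10-FMT (adjusted p = 0.124 by limma) and -0.65 in Con-FMT (95% interval -1.21 to -0.09, adjusted p = 0.0882). Without A10-FMT replicate 2, which was the highest of its group, the change in A10-FMT was -0.85 with an adjusted p of 0.0422.

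Fbp1 was at 959.9, 837 and 855 RPKM in A10-FMT and at 916, 742 and 1212 RPKM in Con-FMT. The A10-FMT libraries were just below the HS libraries, with a log2 change of -0.26 (95% interval -0.63 to 0.10, adjusted p = 0.272 by limma), and those of Con-FMT overlapped HS (-0.17). Pcx, at 154, 125 and 123 RPKM in A10-FMT and 168, 127 and 177 RPKM in Con-FMT, overlapped HS in both groups (log2 changes -0.17 and 0.05). Creb3l3, at 149, 125 and 137 RPKM in A10-FMT and 139.9, 127 and 145 RPKM in Con-FMT, also overlapped HS in both (log2 changes -0.05 and -0.04).

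Slc37a4 stood highest in Con-FMT, at 115, 90.3 and 137 RPKM, with a log2 change from HS of 0.51 that missed the threshold (adjusted p = 0.109 by limma, and 0.0453 after median scaling). In A10-FMT it was at 89.98, 81.4 and 93.3 RPKM, within the range of HS. Crtc2 was at 7.11, 7.21 and 7.72 RPKM in Con-FMT against 9.02, 9.31 and 8.36 RPKM in HS, without overlap, and its log2 change of -0.25 was called (SE 0.08, adjusted p = 0.0346). This small change was no longer called after median scaling (-0.14, adjusted p = 0.106) or without HS replicate 1 or 2 or Con-FMT replicate 1 or 2 (adjusted p 0.0834 to 0.11).

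The recipient groups were also compared directly. Each donor group's content was pooled, so in this comparison donor dosing cannot be told apart from other differences between the pools. Here Pck1 was the 1 gene called among the 8, where 18.8% of all tested genes were called. Its level was 774 ± 127 RPKM in A10-FMT and 1234 ± 68.7 RPKM in Con-FMT (SD, n = 3), and the highest A10-FMT library was below the lowest Con-FMT library. The log2 change was -0.68 (SE 0.13, 95% interval -0.96 to -0.41, adjusted p = 0.00234 by limma). Of the 4 comparisons made between groups that all had diet and STZ, this one had the largest change of Pck1, and it was called without any 1 library and under every other setting tried except the stricter rule of the study (adjusted p up to 0.001 together with a log2 change of 1 or more in size). G6pc differed by 0.08 (95% interval -0.49 to 0.64), Fbp1 by -0.09 (-0.45 to 0.28), Creb3l3 by -0.01 (-0.28 to 0.25) and Slc37a4 by -0.35 (-0.82 to 0.12), none of which was called. Crtc2, at 9.28, 8.68 and 7.67 RPKM in A10-FMT, was not called (log2 change 0.19, adjusted p = 0.106), but it was called after median scaling (0.26, adjusted p = 0.00672) and without A10-FMT replicate 3 (0.26, adjusted p = 0.043).

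**Figure D3:**
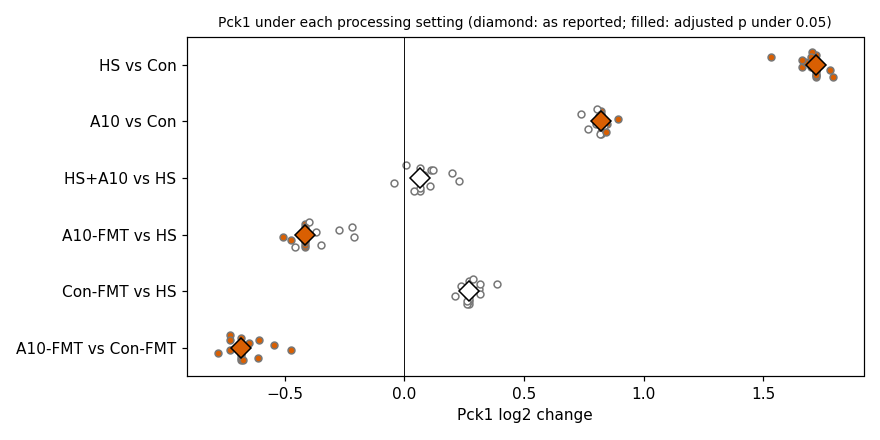
Log2 change of Pck1 (x axis) in 6 comparisons (y axis) under each processing setting, with the reported value as a diamond and points filled where the adjusted p from limma is under 0.05. HS against Con stays near 1.72 and A10-FMT against Con-FMT near -0.68, filled throughout, whereas A10-FMT against HS and A10 against Con lose the call under several settings.

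Several genes that respond to glucocorticoids differed between the recipient groups in the direction of Pck1, as did Igfbp1 and Irs2 of the genes tied to insulin. Of 9 glucocorticoid-responsive genes 6 were higher in Con-FMT than in HS (median log2 change 1.77) and 5 were lower in A10-FMT than in Con-FMT (median -1.03). The shares of all tested genes called in these comparisons were 23.6% and 18.8%. Fkbp5, a chaperone of the glucocorticoid receptor and one of its most used reporters, was at 24.0, 14.7 and 22.4 RPKM in Con-FMT, 5.85, 4.95 and 4.71 RPKM in HS and 5.94, 6.25 and 4.25 RPKM in A10-FMT. Con-FMT stood apart from both, with log2 changes of 1.77 from HS (adjusted p = 1.35e-05 by limma) and -1.71 in A10-FMT from Con-FMT (adjusted p = 1.73e-05). Zbtb16, a further reporter, and the metallothioneins Mt1 and Mt2 showed the same order between HS and Con-FMT, with log2 changes of 2.03, 4.87 and 6.11 from HS, and the calls of these 4 genes held without Con-FMT replicate 3. Mt2 was also high in Con, at 311, 23.4 and 199.8 RPKM, where Pck1 was lowest, and was at 13.8 to 25.4 RPKM in A10-FMT.

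Of the 8 hormone receptors and reporters of insulin or FOXO signalling, limma called 2 between the recipient groups, both lower in A10-FMT, against 18.8% of all tested genes, with a median log2 change of 0.03. These 2 were Igfbp1 and Irs2. Irs1 pointed the other way, at 2.48, 2.58 and 2.55 RPKM in A10-FMT and 2.02, 1.98 and 1.42 RPKM in Con-FMT, with a log2 change that was not called (0.34, adjusted p = 0.0837, and 0.0436 after median scaling). Igfbp1, a FOXO1 target that insulin represses, was at 92.3, 273 and 139 RPKM in Con-FMT against 25.6, 48.0 and 34.9 RPKM in HS and 5.38, 16.0 and 31.8 RPKM in A10-FMT. Con-FMT did not overlap either group, with a log2 change of 2.09 from HS (adjusted p = 0.0051 by limma) and -3.33 in A10-FMT from Con-FMT (adjusted p = 2.83e-04). Irs2, an insulin receptor substrate that FOXO1 also induces, was at 7.29 ± 2.28 RPKM in Con-FMT, 3.82 ± 0.735 RPKM in HS and 1.51 ± 0.0755 RPKM in A10-FMT, and its log2 change in A10-FMT from Con-FMT was -1.69 (adjusted p = 1.58e-04). The change from HS to Con-FMT was 0.76 (adjusted p = 0.0192) and lost its call without HS replicate 1 or 2 or Con-FMT replicate 3 (adjusted p 0.057 to 0.0806).

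**Figure D4:**
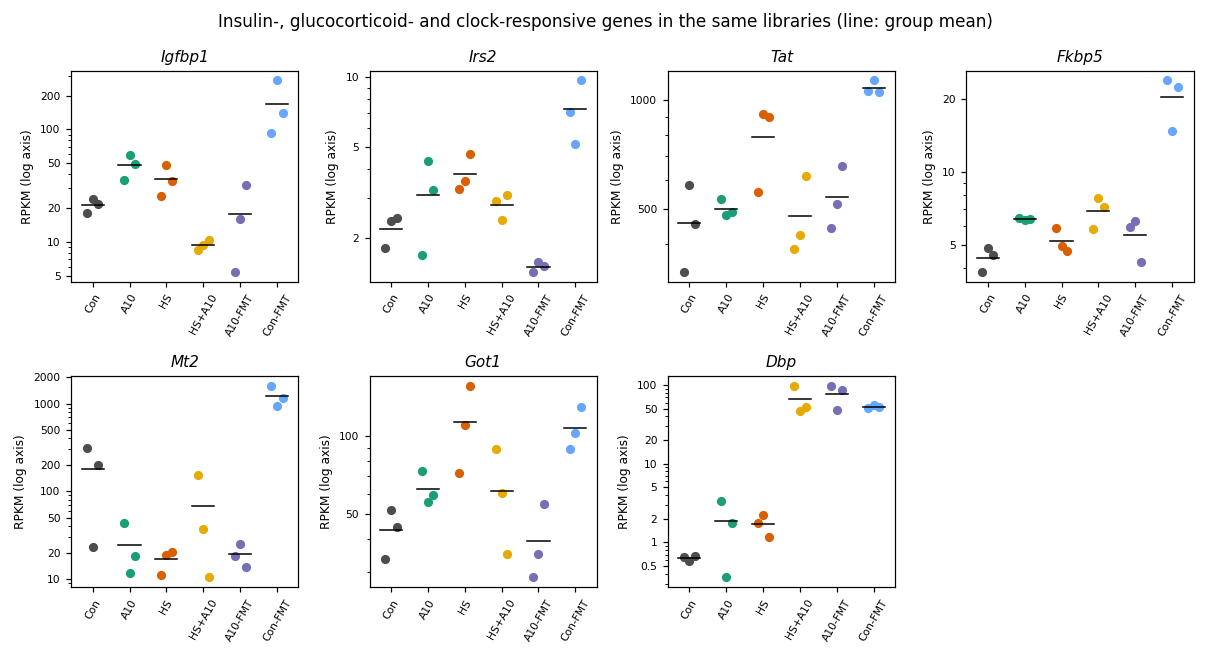
RPKM on log axes (y) of 7 genes that respond to insulin (Igfbp1, Irs2), glucocorticoids (Tat, Fkbp5, Mt2) or the clock (Dbp) or supply substrate (Got1) in the 6 groups (x), with 1 point per library and a line at the group mean. Con-FMT stands apart for Fkbp5, Igfbp1 and Mt2, and HS+A10, A10-FMT and Con-FMT are all above the other groups for Dbp.

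Of 22 tested regulators of gluconeogenic transcription, 5 were higher and 2 lower in Con-FMT than in HS, where 23.6% of all tested genes were called, and against Con-FMT 1 was higher and 4 lower in A10-FMT, where 18.8% were called. Foxo1 was at 10.0 ± 0.768 RPKM in Con-FMT, 7.93 ± 0.454 RPKM in A10-FMT and 6.32 ± 0.415 RPKM in HS, with log2 changes from HS of 0.59 in Con-FMT (adjusted p = 1.15e-04 by limma) and 0.29 in A10-FMT (adjusted p = 0.0139, and 0.0573 without A10-FMT replicate 3). Its order thus differed from that of Pck1, which was below HS in A10-FMT. Cebpb, a liver factor that acts on the Pck1 promoter, rose from 57.1 ± 13.9 RPKM in HS to 164 ± 42.4 RPKM in Con-FMT (log2 change 1.502, adjusted p = 9.27e-04). Hnf4a, a nuclear receptor that keeps hepatocyte genes active, was at 113 ± 1.99 RPKM in A10-FMT and 184 ± 11.1 RPKM in Con-FMT (log2 change -0.70, adjusted p = 3.63e-04). Nr3c1, the glucocorticoid receptor itself, was the gene that stood higher in the A10-FMT recipients (log2 change 0.35, adjusted p = 0.00275).

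Of the 8 enzymes that glycolysis and gluconeogenesis share, some were called lower in recipients than in HS and none higher. Limma called 4 of 8 lower in A10-FMT (Tpi1, Pgk1, Pgam1 and Gapdh, log2 changes -0.54, -0.50, -0.66 and -0.38, median of the list -0.34) and 3 of 8 lower in Con-FMT (median -0.32), against medians of all genes of -0.16 and -0.12. The call of Gapdh was lost after median scaling (adjusted p = 0.204 by limma) and without A10-FMT replicate 2 or 3 (0.0524 and 0.0578). Among the 7 genes listed for the opposing steps, Pklr, the liver pyruvate kinase, rose from 34.1 ± 11.98 RPKM in HS to 78.0 ± 14.4 RPKM in A10-FMT. Its log2 change was 1.22 (adjusted p = 0.0153 by limma, 0.0551 without HS replicate 1 and 0.0642 without A10-FMT replicate 3). Of the 19 tested substrate supply genes, 1 was higher and 2 were lower in A10-FMT than in HS, 0 were higher and 3 lower in Con-FMT than in HS, and between the recipient groups 5 were called, 3 of them higher in A10-FMT. The shares of all tested genes called in these comparisons were 23.1%, 23.6% and 18.8%. Got1 was at 39.5 ± 13.6 RPKM in A10-FMT and 108 ± 20.9 RPKM in Con-FMT against 113 ± 42.6 RPKM in HS. It was lower in A10-FMT than in HS by a log2 change of -1.48 (adjusted p = 0.00625) and than in Con-FMT by -1.46 (adjusted p = 0.00636). Slc16a1, which carries lactate and pyruvate across the cell membrane, fell in both recipient groups, by 0.97 on the log2 scale in A10-FMT (adjusted p = 0.00507) and by 0.96 in Con-FMT (adjusted p = 0.00393). Aqp9 was the gene that rose in A10-FMT from HS (log2 change 0.28, adjusted p = 0.0446), a call lost without HS replicate 2 or 3 or A10-FMT replicate 1 or 2 (adjusted p 0.0817 to 0.191). Against Con-FMT, Tat, tyrosine aminotransferase, was lower in A10-FMT (log2 change -1.03, adjusted p = 0.00556), whereas Slc25a10 (0.58, adjusted p = 0.0111), Gpd2, the mitochondrial glycerol-3-phosphate dehydrogenase (0.41, adjusted p = 0.0424), and Aqp9 (0.29, adjusted p = 0.0437) were higher. The call of Slc25a10 was lost without A10-FMT replicate 1 or Con-FMT replicate 1 (adjusted p 0.051 and 0.0514), that of Gpd2 without any 1 of the 6 libraries except Con-FMT replicate 1 (0.0541 to 0.152) and that of Aqp9 without any 1 except A10-FMT replicate 3 (0.0768 to 0.165).

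Against Con, both recipient groups kept higher levels of the genes that were raised in HS. In A10-FMT 4 of the 8 genes were called, all higher than Con (Pck1 1.31, Fbp1 0.84, Pcx 0.55 and Creb3l3 0.51 on the log2 scale), where 14.3% of all tested genes were called. In Con-FMT 5 of the 8 genes were called, all higher (Pck1 1.99, Slc37a4 1.03, Fbp1 0.93, Pcx 0.77 and Creb3l3 0.52), where 25.8% of all tested genes were called. These comparisons share the Con libraries with each other and with that of HS. For Pck1, the A10-FMT value of 774 ± 127 RPKM lay 2.49-fold above Con. Slc37a4 in A10-FMT had a log2 change from Con of 0.68 with an adjusted p of 0.052 by limma, and G6pc, with -0.01 in A10-FMT and -0.09 in Con-FMT, stood at its Con level in both recipient groups within 95% intervals of -0.57 to 0.55 and -0.65 to 0.48. The call of Pcx in A10-FMT was lost without any 1 of the 6 libraries compared (adjusted p 0.0508 to 0.134), and that of Creb3l3 without A10-FMT replicate 1 or Con replicate 1 (adjusted p 0.0578 and 0.0581). Without both Con replicate 3 and A10 replicate 3, 2 genes were called in A10-FMT and 5 in Con-FMT.

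AOS given to the mice themselves was examined in A10 and HS+A10. In A10 against Con limma called 7 of 10204 genes, or 0.0686%, and Pck1 was among them, as 1 of the 8 genes. Pck1 was at 539.9, 553 and 552 RPKM in A10, all above the Con libraries, a log2 change of 0.82 (SE 0.13, adjusted p = 0.0245 by limma). With both Con replicate 3 and A10 replicate 3 left out the estimate was 0.80 but the adjusted p was 0.493. The call was also lost without any 1 of Con replicates 1 and 3 and A10 replicates 1 to 3, with adjusted p-values of 0.076 to 0.208 and log2 changes of 0.77 to 0.83. G6pc was at 351, 325 and 333 RPKM in A10, above every Con library, with a log2 change of 0.71 (unadjusted p = 0.0164, adjusted p = 0.269). Fbp1 (0.23), Pcx (0.15), Slc37a4 (0.18) and Creb3l3 (0.04) had overlapping libraries and were not called. Nr1d1 and Nr1d2, clock repressors of which Nr1d1 also acts on gluconeogenic genes, were 2 further genes of the 7 called, with log2 changes of 2.45 and 1.39, and their calls were lost without Con replicate 1 or 3 or A10 replicate 3 (adjusted p 0.0633 to 0.152). Without both Con replicate 3 and A10 replicate 3 the adjusted p of each was 0.272.

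In HS+A10 against HS 0 of the 8 genes were called by limma, where 7.32% of all tested genes were called, and 2 of the 8, Pcx and Creb3l3, had an unadjusted p under 0.05. Pck1 was at 1243, 888 and 1106 RPKM in HS+A10, spread around the HS values (log2 change 0.07, 95% interval -0.21 to 0.34). Pcx was at 229, 222 and 181 RPKM, all above the HS libraries, with a log2 change of 0.48 (adjusted p = 0.0873), and Creb3l3 was at 192, 184 and 173 RPKM with a log2 change of 0.37 (adjusted p = 0.0801). Both were called after median scaling (adjusted p 0.0338 and 0.0368) and without HS replicate 1 (adjusted p 0.041 and 0.00571). Fbp1, at 1442, 1370.3 and 979 RPKM, and G6pc, at 177, 234 and 287 RPKM, overlapped HS (log2 changes 0.24 and -0.41). Of the 8 hormone receptors and reporters of insulin or FOXO signalling, 1 was called higher and 1 lower. Trib3 rose by a log2 change of 1.53 (adjusted p = 0.00382 by limma). Igfbp1 fell from 36.2 ± 11.3 to 9.46 ± 0.996 RPKM (log2 change -1.79, adjusted p = 0.0318). The Igfbp1 call was lost without any 1 of HS replicates 2 and 3 and HS+A10 replicates 1 to 3 (adjusted p 0.0554 to 0.125).

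In HS+A10 against A10, diet and STZ in AOS-dosed mice, 4 of the 8 genes were called, all higher, where 20.9% of all tested genes were called. They were the 4 genes raised in HS against Con, namely Fbp1 (log2 change 1.10), Pcx (1.05), Pck1 (0.96) and Creb3l3 (0.89), and all 4 were called without both Con replicate 3 and A10 replicate 3 (adjusted p 0.00332 to 0.00755 by limma). G6pc pointed the other way, with -0.56 (adjusted p = 0.152 by limma) and all HS+A10 libraries below those of A10. Trib3 rose by 2.33 on the log2 scale (adjusted p = 2.53e-05 by limma). The difference between the diet and STZ effect with AOS and without it was tested as an interaction. Limma called 0 of the 8 genes, where 1 of 10204 genes, or 0.0098%, was called, and 2 of the 8 had an unadjusted p under 0.05. These were Pck1, with an interaction of -0.76 (SE 0.18, adjusted p = 0.143), and G6pc, with -1.12 (SE 0.37, adjusted p = 0.224), so that a smaller rise of Pck1 with AOS was not shown.

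Across the 6 groups Pck1 thus ran from Con over A10, A10-FMT, HS and HS+A10 to Con-FMT. Libraries of neighbouring groups in this order did not overlap up to HS, whereas HS overlapped HS+A10 and HS+A10 overlapped Con-FMT. Fbp1, Pcx and Creb3l3 had Con and A10 overlapping at the bottom and HS+A10 at the top. For Creb3l3 the HS+A10 libraries overlapped HS in the range of its highest library, for Fbp1 they overlapped both HS and Con-FMT, and for Pcx they were above every library of the other groups. G6pc was called in 0 of the 10 comparisons by limma and had an unadjusted p under 0.05 in 5 of them. Its highest mean was in A10, 337 ± 13.5 RPKM, followed by HS with 305 ± 42.3 RPKM, which overlapped A10.

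As a description over the 18 libraries, which share groups, Pearson's r of log2(RPKM + 1) was 0.95 between Fbp1 and Pcx, 0.93 between Pcx and Creb3l3, 0.92 between Fbp1 and Creb3l3 and 0.83 between Pck1 and Fbp1, whereas it was 0.03 between Pck1 and G6pc and -0.33 between G6pc and Slc37a4. Outside the 9 genes, the profiles most like that of Pck1 were those of Slc7a2, a carrier of cationic amino acids (r = 0.951), Mbl2, a mannose-binding lectin (0.930), Sorbs3 (0.896), Cck (0.895) and Agmat (0.886). Those most like Fbp1 were Selenop, the plasma selenium carrier (0.965), Sardh (0.950) and Mat1a (0.945), and those most like Pcx were Selenop (0.949), Cryz (0.946) and Acadm (0.945). Creb3l3 was most like Dglucy (0.966), Hadhb, a subunit of the mitochondrial enzyme of fatty acid oxidation (0.963), and Nceh1 (0.960). For G6pc the highest values were lower, with Phf2 (0.778) and Abcb11, the bile salt export pump (0.756). Slc37a4 was most like Ap3m1 (0.915), Omd (0.912) and Errfi1 (0.894), Crtc2 like Txnrd2 (0.955), Gypc (0.943) and Aldh5a1 (0.938), and G6pc3 like Ube3b (0.857), Fbxo9 (0.833) and Cyp2a22 (0.817).

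Clock genes separated the groups in another way, which bears on every comparison between HS+A10 or a recipient group and HS, Con or A10. Dbp, a clock-output factor with a steep daily rhythm, was at 0.58 to 0.68 RPKM in Con, 0.36 to 3.41 RPKM in A10 and 1.17 to 2.22 RPKM in HS, but at 47.3 to 97.5 RPKM in HS+A10, 48.8 to 98.8 RPKM in A10-FMT and 51.8 to 55.5 RPKM in Con-FMT. Of 16 tested clock genes, 14 were called in A10-FMT, 12 in Con-FMT and 14 in HS+A10 against HS. The shares of all tested genes called there were 23.1%, 23.6% and 7.32%. In HS+A10 against A10, 9 clock genes were higher (Dbp by a log2 change of 4.63) and 4 lower. There 4 of the 8 gluconeogenic genes and 20.9% of all tested genes were called. Against Con, 10 rose and 5 fell in A10-FMT, while 10 rose and 4 fell in Con-FMT (14.3% and 25.8% of all tested genes called). The number called was 4 in HS against Con, 2 in A10 against Con and 2 in A10-FMT against Con-FMT (17.7%, 0.0686% and 18.8% of all tested genes). In HS against Con, Nr1d1 and Nr1d2 were higher (log2 changes 2.71 and 1.44), and Cry1 and Npas2 were lower (-0.77 and -0.59). The 2 called in A10 against Con were Nr1d1 and Nr1d2. Time of day is not in the labels. Its part in the changes of Pck1, G6pc and the other genes was not tested, and in the comparisons of HS+A10, A10-FMT or Con-FMT with HS, Con or A10 the clock difference and the treatment cannot be told apart. In HS or A10 against Con, too, the difference in the clock genes called there cannot be told apart from the treatment.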

How the data were processed

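Liver RNA of 18 libraries in 6 labelled groups of 3 was analysed. The authors selected mRNA on oligo(dT) beads, sequenced it and deposited RPKM values per gene with 2 decimals, 1 column per library. The study's methods name SOAPaligner and the submitters' processing notes name Bowtie 0.12.2 and the build mm10, so the mapping behind the values is uncertain, and how reads shared by similar genes were counted is not given in the sources used here. RPKM divides by each library's total, so that a few abundant genes can move all others.

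Values were used as log2(RPKM + 1), which understates changes of low genes. Genes whose mean reached 1 RPKM were fitted with limma 3.58.1 in R 4.3.3, with 1 mean per group over all 18 libraries and a variance trend. P-values are two-sided, adjusted by Benjamini-Hochberg over the 10204 genes tested, and a call means an adjusted p under 0.05. The script was first tested on data with known changes. DEGseq, the study's test, ignores replicate spread and was left out. Gene positions were taken from the GENCODE annotation of GRCm38 and upstream sequences from RefSeq, in which Crtc2 was not matched. The 9 genes and the lists were chosen with earlier results of these data known. Named genes are the 9, at most 4 called genes per list with the smallest adjusted p in the comparison described, and the closest profiles by Pearson's r (3 per gene, 5 for Pck1). A few genes that this rule would name are not reported here.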

Additional observations from a re-analysis of the deposited data

How the results depend on the processing

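Each result was recomputed with quantile normalization, scaling to the same median, no filter, a filter at a mean of 5 RPKM, a pseudocount of 0.1, 12 libraries (without A10 and HS+A10), only the groups compared, the study's call rule, a replicate block, and leaving out each library. Scaling without the 10 most abundant genes, leaving out Con-FMT replicate 3 from all comparisons and leaving out both Con replicate 3 and A10 replicate 3 were chosen after seeing the data. Of 737 alternative values of single genes among the 9, 677 kept direction and call, 38 lost and 21 gained the call, and 1 turned direction (Pck1 in HS+A10 against HS, -0.044 without HS+A10 replicate 1 and up to 0.20 without HS+A10 replicate 2, with no setting calling it).

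The number of genes called among the 8 was 0 in A10-FMT against HS with no filter, quantile normalization, median scaling, only the groups compared, the study's rule and scaling without the 10 most abundant genes, and 0 to 1 with a library left out. In Con-FMT against HS it was 0 with quantile normalization, 12 libraries, only the groups compared and the study's rule, and 0 to 1 with a library left out. In A10-FMT against Con-FMT it was 2 with quantile normalization, median scaling and scaling without the 10 most abundant genes, 0 with the study's rule, and 1 to 2 with a library left out. In HS+A10 against HS it was 2 with quantile normalization and median scaling, 1 with scaling without the 10 most abundant genes, and 0 to 2 with a library left out. In A10 against Con it was 0 with median scaling, the replicate block, the study's rule and both Con replicate 3 and A10 replicate 3 left out, and 0 to 1 with a library left out. The study's rule left 1 gene in HS against Con, 2 in HS+A10 against A10, 1 in A10-FMT against Con and 1 in Con-FMT against Con. In A10-FMT against Con, 2 to 3 were called with a library left out and 2 without both Con replicate 3 and A10 replicate 3. Apart from A10 against Con, the replicate block left the number called within 1.5 times the reported one. Whether replicate numbers pair the libraries across groups was not settled. Deviations of same-numbered libraries had a median correlation of 0.01 (45 pairs, -0.13 to 0.26). Those of other-numbered libraries had a median of -0.01 (90 pairs, -0.34 to 0.23). Of 18 libraries, 10 correlated best with their own number, which is 1 of 3. The cause of these changes was not tested. The read number is unknown, so precision rests on 3 libraries per group.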

Other observations

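Genes that mark the zones of the liver lobule, in which gluconeogenesis is placed mainly near the portal vein, were measured with the same fit. Of 9 periportal genes, 5 were lower in A10-FMT than in HS (median log2 change -0.56), among them Ass1 and Cps1 of the urea cycle with log2 changes of -0.94 (adjusted p = 0.00574 by limma) and -1.01 (adjusted p = 0.0134, and 0.0527 without HS replicate 3 and 0.0547 without A10-FMT replicate 2). In HS against Con, 2 of the 9 were higher (median 0.54). The shares of all tested genes called were 23.1% in A10-FMT against HS and 17.7% in HS against Con.

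Of 8 pericentral genes 4 were higher in HS than in Con (median log2 change 0.43), where 17.7% of all tested genes were called. Oat, ornithine aminotransferase, rose from 78.1 ± 4.69 to 458 ± 90.7 RPKM (SD, n = 3), a log2 change of 2.52 (adjusted p = 1.48e-05 by limma), and was at 115 ± 40.1 RPKM in A10-FMT, a log2 change of -2.01 from HS (adjusted p = 1.85e-04). Cyp2e1, a cytochrome P450 that metabolises ethanol and acetone, went from 2183 ± 410.0 RPKM in Con to 3558 ± 504 RPKM in HS and 6163 ± 417 RPKM in A10-FMT, with a log2 change of 0.80 from HS (adjusted p = 0.00119).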
